A study of Pan troglodytes with 8 samples.

Results

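Chromatin accessibility was examined near 57 genes of the Wnt pathway in chimpanzee cerebral organoids: the secreted Wnt ligands, their Frizzled, LRP, ROR and RYK receptors, the R-spondins with their LGR receptors, the secreted antagonists, and the proteins that carry the signal to the nucleus. A region counted as a member if the deposited table of accessible regions gave one of these genes as its closest gene, at any distance. This rule found 391 of 211348 regions, for 55 of the 57 genes. FZD10, a Frizzled receptor, and LGR4, an R-spondin receptor, were the closest gene of no region.

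Wnt proteins are lipid-modified signals that cells secrete and that act mostly on close neighbours. In the canonical branch a Wnt binds a Frizzled receptor and an LRP co-receptor, the AXIN scaffold no longer directs the destruction of β-catenin (CTNNB1), and β-catenin switches on genes together with TCF and LEF factors. R-spondins amplify this by keeping Frizzled receptors at the cell surface, SFRP, DKK and WIF proteins block it outside the cell, and ligands such as WNT5A also act without β-catenin, through ROR and RYK receptors, on cell shape and axon growth. In the developing cortex, Wnts from the cortical hem at its medial edge pattern the tissue and keep radial glia dividing.

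The assay was bulk ATAC-seq, which reads out open chromatin as the DNA that a Tn5 enzyme can cut and tag. Cells came from organoids of 1 chimpanzee induced pluripotent stem cell line, SandraA, with no further genotype or treatment contrast, harvested at 8 weeks, give or take 3 days. The organoids were sorted by flow cytometry into 4 populations of 2 libraries each: BCL11B+ neurons (N), basal intermediate progenitors (bIP), which are short-lived dividing cells that mostly make neurons, basal radial glia (bRG), which are stem cells away from the ventricle, and apical radial glia (aRG), which line it. The labels do not say whether libraries 1 and 2 came from separate cultures, so a p-value speaks only of the spread among these samples, and in bulk samples fewer cells of a type and less open chromatin per cell cannot be told apart. Library totals lay between 24913928 and 34845193 counts, and Wnt regions took 0.2098% and 0.1903% of the counts in N, 0.2383% and 0.2358% in bIP, 0.2721% and 0.2668% in bRG, and 0.2764% and 0.2723% in aRG.

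The labels were checked at marker genes. The summed signal at 7 radial glia markers was 400 and 357 in N, 756 and 947 in bIP, 1480 in both bRG libraries, and 1560 and 1480 in aRG, in CPM (counts scaled to 1000000 per library) over gene loci. At 8 neuron markers it was 1560 and 1540 in N, 1600 and 1510 in bIP, 950 and 895 in bRG, and 981 and 875 in aRG. Of these 8, 7 rose in bIP against aRG (87.5%, beside 16.8% of all loci). In N against bIP 3 rose (37.5%) and 2 fell (25.0%), beside 12.5% and 17.1%, so their sum did not set N apart from bIP. At 6 basal radial glia markers the sum was 444 and 457 in N, 526 and 571 in bIP, 1020 and 1030 in bRG, and 1080 and 948 in aRG. None of these 6 was called between bRG and aRG, beside 0.0% of all loci, so they did not set bRG apart from aRG. At 5 bIP markers it was 852 and 719 in N, 1040 and 993 in bIP, 524 and 561 in bRG, and 577 and 536 in aRG. Of these 5, 4 rose in bIP against aRG (80.0%, beside 16.8% of all loci). The other, NEUROG2, stood at -1.06 and was not called (adjusted p = 0.087 by edgeR). In N against aRG 3 of the 5 also rose and 1 fell (60.0% and 20.0%, beside 25.4% and 27.6%). In N against bIP 2 fell (40.0%, beside 17.1%) and none rose. The BCL11B locus itself went against the label of the neurons. Its mean was 114 CPM in N, 171 in bIP, 134 in bRG and 136 in aRG, lower in N than in bIP by -0.59 (adjusted p = 0.0042 by edgeR) and not called between N and aRG (-0.25, adjusted p = 0.068). Markers of the cortical hem and choroid plexus, tissues that secrete Wnts and could be present in organoids, summed to 580 and 538 CPM in N, 756 and 716 in bIP, 887 and 826 in bRG, and 924 and 853 in aRG. Of these 12 markers 6 fell (50.0%) and none rose in N against aRG, where 27.6% of all loci fell and 25.4% rose. None was at 0 in all libraries. Mesenchymal markers summed to 328 and 348 CPM in N, 465 and 470 in bIP, 729 and 664 in bRG, and 769 and 661 in aRG, with 3 of 7 (42.9%) lower in N against aRG. Inhibitory neuron markers summed to 332 and 303 CPM in N, 512 in both bIP libraries, 618 and 620 in bRG, and 709 and 622 in aRG, with 4 of 7 (57.1%) lower, beside the same 27.6% of all loci. The hem, mesenchymal and inhibitory neuron sums, like the radial glia sum, moved in the same direction as the Wnt genes that were lower in N. Their part in those results was not tested.

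Each gene was first taken as a locus, the sum of counts over all regions for which it was the closest gene. Locus CPM is scaled to counts within the loci of protein-coding genes, and region CPM, used for single regions, is scaled to counts over all regions, so the scales differ. A difference was called at an adjusted p under 0.05 in edgeR's quasi-likelihood test with Benjamini-Hochberg adjustment over all loci or all regions of the series. Fold changes are on the log2 scale with their standard error. "Higher", "rose", "lower" and "fell" are used of called differences, and levels are given for the rest.

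Wnt loci were mostly less open in neurons than in apical radial glia, with a few large exceptions. For N against aRG, 12 of 55 Wnt loci rose and 31 fell. Of all 14094 loci tested, 25.4% rose and 27.6% fell, so the share of Wnt loci that rose (21.8%) was near the background and the share that fell (56.4%) was above it. The 55 Wnt loci summed 391 regions, beside 58625 regions over 14206 protein-coding genes, so they held more regions per gene. Called in either direction were 78.2% of Wnt loci beside 53.0% of all loci, but 68.7% of Wnt regions beside 69.0% of all regions. What part the number of regions has in the locus shares was not tested. The median log2 fold change was -0.42 over Wnt loci and 0.00 over all loci. The bIP population stood between: against aRG, 8 Wnt loci rose and 17 fell (backgrounds 16.8% and 14.9%, Wnt median -0.09), and for N against bIP, 6 rose and 18 fell (12.5% and 17.1%, Wnt median -0.26). The last 2 comparisons share the bIP libraries, and the count for bIP against aRG was 15 without aRG 1, 16 without aRG 2 and 16 without bIP 1, while that for N against bIP was 15 without N 2 and also 15 without bIP 2.

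Between the radial glia populations no Wnt locus or region was called. For bRG against aRG, 0 of 55 loci and 0 of 383 tested regions were called by edgeR, against backgrounds of 0.0% in either direction for loci and 0.0% in either direction for regions. DESeq2 also called 0 of each. At an unadjusted p under 0.05, edgeR gave 0 Wnt loci, beside 0.91% of all loci, and 9 Wnt regions (2.35%), beside 2.64% of all regions. Log2 fold changes of the loci lay between -0.29 and 0.20. The basal radial glia markers above were not called between these populations either. Missing the threshold does not show that the populations are alike.

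**Figure D1:**
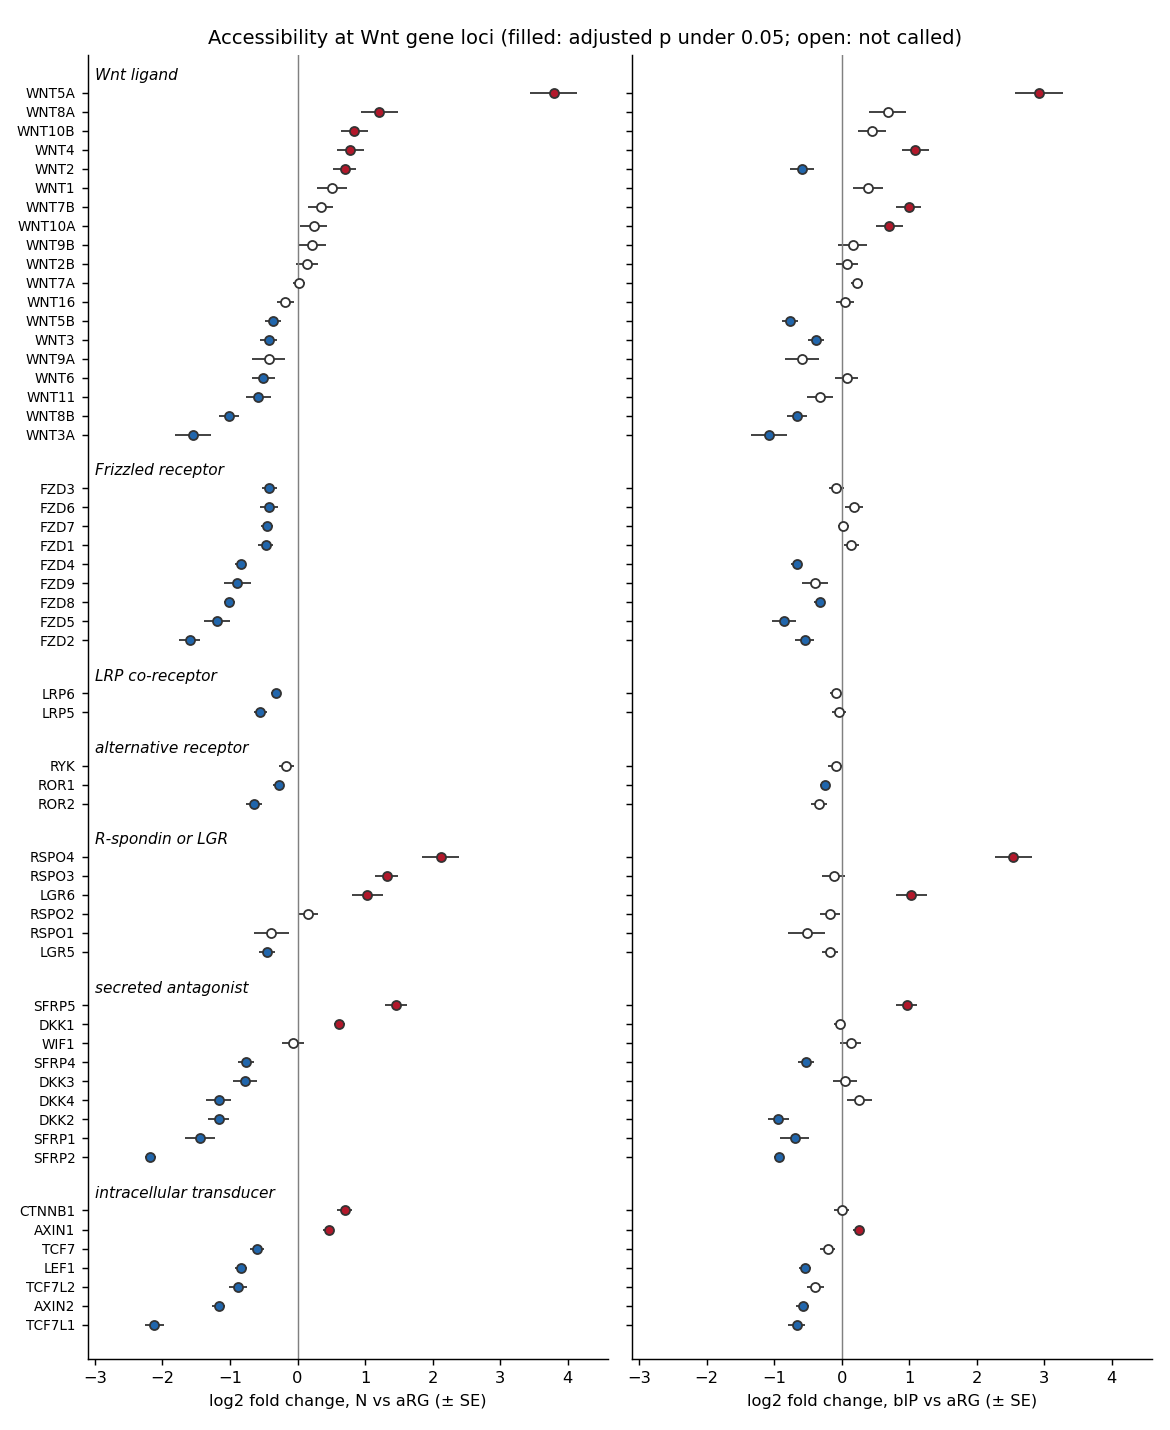
Log2 fold change with standard error of each Wnt locus, for N against aRG (left) and bIP against aRG (right), grouped by role. Red and blue points are called higher and lower, and open points are not called. WNT5A stands at 3.79 for N against aRG, and all 9 Frizzled loci lie below 0 there.

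WNT5A, a ligand known for β-catenin-independent signalling and axon guidance, had the largest change of any Wnt locus. Its locus, 4 regions, had 99.5 and 84.2 CPM in N, 66.9 and 33.3 CPM in bIP, 8.85 and 6.30 CPM in bRG, and 5.79 and 7.51 CPM in aRG. Both N libraries were above both bIP libraries, and these were above every radial glia library. WNT5A rose in N against aRG by 3.79 ± 0.35 (adjusted p = 6.1e-05) and in bIP against aRG by 2.92 ± 0.35 (adjusted p = 0.00059). The difference between N and bIP, 0.87 ± 0.29, was not called (adjusted p = 0.055). The bIP libraries lay apart from each other, and without bIP 1 the change against aRG was 2.31.

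The most open WNT5A region in N and bIP was one of 810 bp at chr3:55745589-55746398 (panTro6), 987 bp from the gene's start. It had 32.5 and 30.4 region CPM in N, 18.5 and 9.98 in bIP, 2.38 and 1.56 in bRG, and 1.06 and 1.81 in aRG. The authors' peak lists held a peak over it in N and in bIP and none in bRG or aRG. Its change was 4.46 ± 0.35 for N against aRG (adjusted p = 6.1e-07) and 1.14 ± 0.29 for N against bIP (adjusted p = 0.0068). The call against bIP was lost without bIP 2 (0.61). A smaller region at chr3:55748953-55749197 was likewise highest in N, then bIP, with means of 3.59 in N, 1.04 in bIP, 0.156 in bRG and 0.182 in aRG. The large neighbouring region at chr3:55740787-55743678 behaved otherwise. The table assigns it to the antisense gene WNT5A-AS1, so it is not part of the locus above, and it was looked at after its values were seen. It had 21.5 and 17.2 region CPM in N, 24.0 and 20.5 in bIP, 29.9 and 23.7 in bRG, and 34.6 and 27.4 in aRG, a fall of 0.68 in N against aRG (adjusted p = 0.0029), with a peak in all 4 populations. The WNT5A region and this neighbour thus moved in opposite directions.

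Among the 19 ligand loci, 5 rose (26.3%) and 6 fell (31.6%) in N against aRG, near the backgrounds of 25.4% and 27.6%, with a median of 0.14. WNT8A, a ligand of early embryonic patterning, rose by 1.21 ± 0.27 (adjusted p = 0.0055), at a low level: 9.5 and 11.7 CPM in N, 7.71 and 6.96 in bIP, 4.10 and 6.30 in bRG, and 4.24 and 4.95 in aRG. WNT10B, a canonical ligand, had 39.9 and 39.3 CPM in N, 32.4 and 28.2 in bIP, 26.5 and 17.6 in bRG, and 24.0 and 20.3 in aRG. Its rise of 0.84 ± 0.20 (adjusted p = 0.0085) was lost without aRG 2 (0.71). WNT2, another canonical ligand, was represented by 1 region over its start. It had 32.8 and 29.1 locus CPM in N, 13.0 and 12.3 in bIP, 15.9 and 17.2 in bRG, and 17.0 and 21.2 in aRG. Both N libraries were thus above all others, and the rise against bIP was 1.30 ± 0.18 (adjusted p = 0.0016).

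The ligands that fell most in neurons against aRG were WNT3A and WNT8B. WNT3A, a canonical ligand required for hippocampal growth in the mouse, had 26.7 and 14.8 CPM in N, 33.2 and 24.9 in bIP, 69.9 and 54.1 in bRG, and 67.9 and 54.9 in aRG. The fall was 1.55 on the log2 scale for N against aRG (adjusted p = 0.0016), and N and bIP libraries were below every radial glia library. WNT8B had 46.8 and 45.2 CPM in N, 60.4 and 57.6 in bIP, 75.5 and 93.5 in bRG, and 79.9 and 107 in aRG. Its locus fell by 1.02 in N against aRG (adjusted p = 0.00069), and 1 of its 3 regions carried the change. That region, at chr10:96324182-96325127 and 22510 bp from the start, had 0.373 and 0.550 region CPM in N, 2.98 and 4.03 in bIP, 15.2 and 20.4 in bRG, and 18.7 and 30.2 in aRG. With a log2 fold change of -5.73 ± 0.36 (adjusted p = 1.3e-07) it was the Wnt region that fell most, and it had a peak in bRG and aRG only. WNT11, a β-catenin-independent ligand, fell by 0.58 (adjusted p = 0.034), a call lost without N 2 (-0.45) and without aRG 1 (-0.36).

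WNT7B and WNT4 had their highest mean in intermediate progenitors. WNT7B, a canonical ligand of the forebrain, had 165 and 115 CPM in N, 231 and 212 in bIP, 123 and 94.3 in bRG, and 121 and 102 in aRG. It rose in bIP against aRG by 0.99 ± 0.18 (adjusted p = 0.0046), and N was lower than bIP by -0.65 ± 0.18 (adjusted p = 0.028), a call lost without N 2 (-0.42), bIP 1 (-0.56) or bIP 2 (-0.71). A region 9639 bp from its start, at chr22:28794409-28795803, was open mainly in bIP, with 6.46 and 4.71 region CPM in N, 16.1 and 18.3 in bIP, 6.91 and 5.31 in bRG, and 6.27 and 4.66 in aRG. Both bIP libraries were more than 2-fold above every other library there. WNT4, a ligand of several branches, had 67.6 and 59.5 locus CPM in N, 96.1 and 62.0 in bIP, 40.8 and 36.0 in bRG, and 39.4 and 34.5 in aRG. It rose by 1.09 ± 0.20 in bIP against aRG (adjusted p = 0.0038), or 0.72 without bIP 1, and by 0.78 ± 0.20 in N against aRG (adjusted p = 0.0099), a call lost without aRG 2 (0.68). Its region over the start was level, with means of 13.2 region CPM in N, 10.1 in bIP, 10.3 in bRG and 10.9 in aRG, and the other region, 41499 bp away, rose by 1.71 ± 0.25 in bIP against aRG (adjusted p = 0.00017).

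WNT5B and WNT6 were each lowest in a different population. WNT5B, a relative of WNT5A, was lowest in bIP at 25.6 and 27.5 CPM, with 33.4 and 37.5 in N, 46.9 and 51.5 in bRG, and 43.6 and 47.1 in aRG. Its fall of 0.77 in bIP against aRG (adjusted p = 0.002) kept its call with each library left out in turn. WNT6, an epithelial ligand, averaged 34.9 ± 10.3 CPM in N, 52.3 ± 2.02 in bIP, 47.6 ± 0.231 in bRG and 49.9 ± 0.0396 in aRG (SD, n = 2 each). N was lower than bIP by -0.58 (adjusted p = 0.038), a call lost without N 2 (-0.31), bIP 1 (-0.51), bIP 2 (-0.61) or any single radial glia library (-0.58 each). Of the other ligands, WNT3 fell in N and in bIP against aRG. WNT10A rose in bIP against aRG by 0.70 ± 0.20 (adjusted p = 0.03), with 132 and 101 CPM in bIP and 78.1 and 65.5 in aRG. It was not called in N against aRG. WNT1, WNT2B, WNT7A, WNT9A, WNT9B and WNT16 were not called in any comparison.

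**Figure D2:**
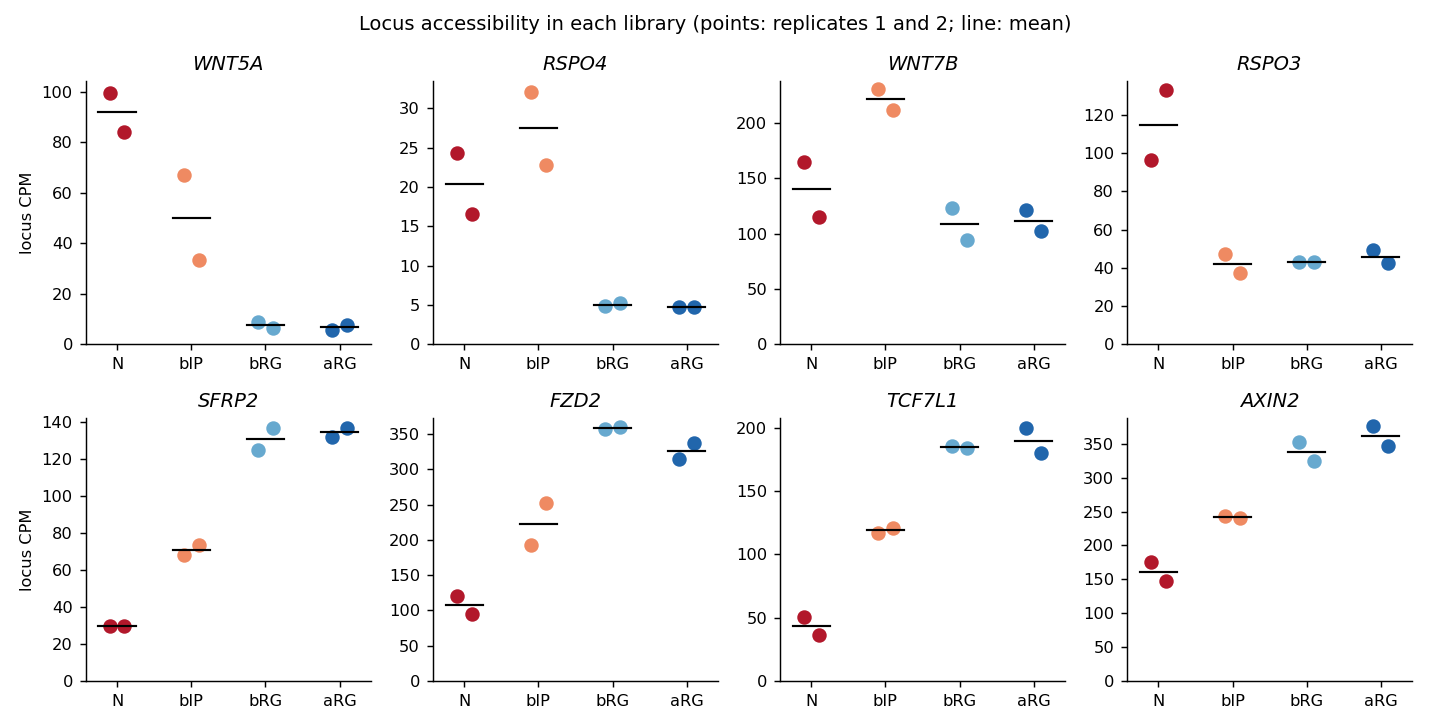
Locus CPM in each of the 8 libraries (points) with the population mean (line) for 8 Wnt loci, in the order N, bIP, bRG and aRG. WNT5A and RSPO4 are high in N and bIP, WNT7B in bIP and RSPO3 in N, while SFRP2, FZD2, TCF7L1 and AXIN2 are lowest in N and highest in the radial glia.

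R-spondins and their receptors held 3 of the 12 Wnt loci that rose in N against aRG. These were 3 of 6 tested loci of this role (50.0%, beside 25.4% of all loci), and 1 fell (16.7%, beside 27.6%). RSPO4, the R-spondin known for nail development, had 24.3 and 16.5 CPM in N, 32.1 and 22.8 in bIP, 4.88 and 5.21 in bRG, and 4.73 and 4.68 in aRG. All N and bIP libraries were above all radial glia libraries, with changes of 2.12 ± 0.27 for N against aRG (adjusted p = 0.0003) and 2.54 ± 0.27 for bIP against aRG (adjusted p = 0.00038). Its regions differed in the population where they were highest. A region at chr20:1445526-1446223 had means of 4.91 region CPM in N, 1.64 in bIP, 0.725 in bRG and 0.563 in aRG. Another at chr20:1535734-1536567 had means of 0.261 in N, 3.17 in bIP, 0.288 in bRG and 0.504 in aRG, and N was lower than bIP there by -3.52 ± 0.49 (adjusted p = 0.00015).

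RSPO3, an R-spondin of vascular and brain development, was set apart in neurons. Its 18 regions summed to 96.7 and 133 CPM in N, 47.2 and 37.1 in bIP, 43.3 and 43.1 in bRG, and 49.2 and 42.6 in aRG. Both N libraries were above all others, with rises of 1.32 ± 0.17 against aRG (adjusted p = 0.00032) and 1.44 ± 0.17 against bIP (adjusted p = 0.00096). Restricting the locus to regions within 50 kb of the start gave 3.33 for N against aRG. The nearer regions included one at chr6:124451652-124452977 with 19.7 and 21.9 region CPM in N, 6.11 and 3.03 in bIP, 1.65 and 1.19 in bRG, and 0.783 and 0.672 in aRG. A far region at chr6:124373635-124374557 showed the reverse, with means of 0.398 in N, 1.05 in bIP, 4.69 in bRG and 6.41 in aRG.

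LGR6, an R-spondin receptor, had 148 and 96.4 CPM in N, 144 and 102 in bIP, 68.5 and 55.5 in bRG, and 64.5 and 55.6 in aRG, with libraries 1 above libraries 2 in every population. It rose by 1.03 ± 0.23 in N against aRG (adjusted p = 0.0057), 0.68 without N 1, and by 1.03 ± 0.23 in bIP against aRG (adjusted p = 0.01), a call lost without bIP 1 (0.74) or aRG 2 (0.92). One of its 12 regions lies on chimpanzee chromosome 9 and the other 11 on chromosome 1. The related receptor LGR5, a stem cell marker in many epithelia, went the other way, with 46.3 and 47.3 CPM in N, 61.4 and 52.2 in bIP, 61.1 and 55.3 in bRG, and 69.9 and 58.0 in aRG. Its fall of 0.45 (adjusted p = 0.014) was lost without N 1 (-0.44) or aRG 1 (-0.31). RSPO1 and RSPO2 were not called in any comparison.

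All 9 measured Frizzled loci fell in N against aRG (100.0%, beside 27.6% of all loci). The falls were 0.42 to 1.60 on the log2 scale, with a median change of -0.84. For N against bIP 6 of the 9 fell (66.7%, beside 17.1%), and for bIP against aRG 4 of the 9 (44.4%, beside 14.9%). None rose in any comparison. FZD2 fell most. Its locus had 120 and 94.9 CPM in N, 193 and 252 in bIP, 357 and 360 in bRG, and 315 and 337 in aRG. No N library reached a bIP library and no bIP library reached a radial glia library, and the change was -1.60 ± 0.15 for N against aRG (adjusted p = 6.6e-05) and -1.04 ± 0.15 for N against bIP (adjusted p = 0.0018). The fall of 0.55 for bIP against aRG was lost without bIP 1 (-0.39), aRG 1 (-0.60) or aRG 2 (-0.51). The region over its start, chr17:9583791-9586318, had 22.4 and 18.8 region CPM in N, 38.3 and 54.1 in bIP, 70.9 and 68.1 in bRG, and 75.0 and 74.5 in aRG. A region 13944 bp away opposed it, at chr17:9598986-9599667, with 5.99 and 4.52 in N, 1.71 and 0.806 in bIP, 0.265 and 0.272 in bRG, and 0.0783 and 0.210 in aRG. It rose by 5.17 ± 0.52 in N against aRG (adjusted p = 3.1e-06), 5.98 without aRG 2, the largest rise of any Wnt region.

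FZD5 and FZD8, receptors of canonical Wnts in the eye and forebrain, had their largest falls away from the start. The FZD5 locus fell by 1.19 in N against aRG (adjusted p = 0.00088). Its region at chr2B:94408578-94410055, 42446 bp from the start, had 0.838 and 0.746 region CPM in N, 3.92 and 5.11 in bIP, 25.4 and 24.1 in bRG, and 29.4 and 24.1 in aRG, a change of -5.07 ± 0.24 for N against aRG (adjusted p = 4.1e-08). Over the FZD5 start the same comparison gave means of 21.6 in N and 32.2 in aRG, a fall of 0.57 that was lost without N 2 (-0.28) or aRG 1 (-0.43) and -0.96 without N 1. FZD8 fell by 1.01 in N against aRG (adjusted p = 3.5e-05) and by 0.68 in N against bIP (adjusted p = 0.001). Its region 828 bp from the start, chr10:35761022-35761803, had 4.75 and 3.22 region CPM in N, 15.6 and 14.6 in bIP, 30.1 and 29.1 in bRG, and 32.9 in both aRG libraries. The FZD8 region with the largest fall in N against aRG, at -4.87, was another one, more than 1 kb from the start. The region over the FZD8 start was at -0.52. FZD4, a receptor of blood vessel development, had 63.5 and 57.6 locus CPM in N, 67.1 and 68.8 in bIP, 109 and 107 in bRG, and 110 and 107 in aRG, so that bIP lay near N and below the radial glia. It fell by 0.67 in bIP against aRG (adjusted p = 0.00048), and N against bIP was not called (-0.16).

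FZD1 was the Frizzled locus with most regions, 15, and they split evenly, 5 higher and 5 lower in N against aRG. The locus had 206 and 170 CPM in N, 292 and 279 in bIP, 249 and 233 in bRG, and 277 and 242 in aRG, and fell by 0.61 in N against bIP (adjusted p = 0.005). The fall in N against aRG, 0.47, was lost without aRG 1 (-0.37). FZD10 had no region of its own, but a region at chr12:127815420-127817507, over the start of its antisense neighbour FZD10-AS1, had 9.81 and 8.25 region CPM in N, 7.99 and 7.29 in bIP, 14.6 and 11.8 in bRG, and 17.0 and 13.3 in aRG. It fell by 0.74 in N against aRG (adjusted p = 0.0079), a call lost without N 2 (-0.62) or aRG 1 (-0.57), and was looked at after its values were seen.

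Both co-receptors and 2 of the 3 alternative receptors fell in N against aRG (100.0% and 66.7%, beside 27.6% of all loci). These falls were 0.28 to 0.64 on the log2 scale. Single regions ranged more widely, from -3.35 to 1.84 at LRP5 and from -3.21 to 2.68 at ROR2. LRP5 had 107 and 88.1 CPM in N, 146 and 130 in bIP, 151 and 156 in bRG, and 146 and 139 in aRG, with N below every other library and a fall of 0.55 against aRG (adjusted p = 0.0023). LRP6 had 80.9 and 76.5 CPM in N, 87.8 and 96.9 in bIP, 96.0 and 101 in bRG, and 101 and 95.5 in aRG, a fall of 0.32 (adjusted p = 0.01) that was lost without aRG 1 (-0.28). ROR2, the tyrosine kinase receptor of WNT5A, had 315 and 261 CPM in N, 382 and 330 in bIP, 468 and 413 in bRG, and 464 and 438 in aRG over 23 regions. It fell by 0.64 in N against aRG (adjusted p = 0.0024), while WNT5A rose in the same comparison. ROR1 averaged 92.8 ± 7.05 CPM in N, 94.9 ± 3.11 in bIP, 108 ± 2.43 in bRG and 113 ± 4.43 in aRG (SD, n = 2 each), and its fall of 0.28 in N was lost without N 1 (-0.21) or aRG 1 (-0.24). RYK, a receptor-like kinase without active kinase function, was not called in any comparison.

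The secreted antagonists divided, with 2 of 9 higher and 6 lower in N against aRG and a median of -0.78. The shares were 22.2% and 66.7%, beside 25.4% and 27.6% of all loci. SFRP2, a decoy that binds Wnts, had 29.8 and 29.5 CPM in N, 67.9 and 73.5 in bIP, 125 and 137 in bRG, and 132 and 137 in aRG. Replicates lay close together, N was below bIP and bIP below the radial glia without overlap, and the changes were -2.18 ± 0.08 for N against aRG (adjusted p = 9.4e-06), -1.25 ± 0.09 for N against bIP (adjusted p = 0.00038) and -0.93 ± 0.08 for bIP against aRG (adjusted p = 0.00017). Each of its 6 regions fell in N against aRG. Over its start, chr4:151827904-151830064, region CPM was 8.72 and 7.38 in N, 15.3 and 18.0 in bIP, 28.5 and 34.8 in bRG, and 30.6 and 35.0 in aRG.

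SFRP1, a related decoy, had 91.7 and 104 CPM in N, 127 and 200 in bIP, 241 and 317 in bRG, and 242 and 290 in aRG, a change of -1.44 ± 0.22 for N against aRG (adjusted p = 0.00076). With the bIP libraries so far apart, the falls of 0.74 for N against bIP and 0.70 for bIP against aRG depended on single libraries: the first was -0.38 without bIP 2, -0.65 without N 1 and -0.84 without N 2, and the second -0.43 without bIP 1, -0.83 without aRG 1 and -0.57 without aRG 2, none of them called. SFRP5 was the decoy that rose, with 77.5 and 69.7 CPM in N, 60.6 and 44.0 in bIP, 28.3 and 28.2 in bRG, and 25.1 and 28.6 in aRG. It rose by 1.46 ± 0.16 in N against aRG (adjusted p = 0.00014) and by 0.96 ± 0.16 in bIP against aRG (adjusted p = 0.0028). Its start region, chr10:93626327-93627737, had means of 7.46 region CPM in N, 4.79 in bIP, 2.19 in bRG and 2.24 in aRG, and a peak in N and bIP only. Within this family SFRP1, SFRP2 and SFRP4 thus fell in N against aRG while SFRP5 rose.

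The DKK proteins, which bind LRP co-receptors apart from the divergent DKK3, also divided. DKK2 had 43.7 and 43.1 CPM in N, 59.7 and 41.8 in bIP, 92.1 and 82.8 in bRG, and 104 and 91.2 in aRG, a fall of 1.17 in N against aRG (adjusted p = 0.00039). Its region at chr4:104562345-104563258, 64043 bp from the start, had 0.404 and 0.393 region CPM in N, 1.96 and 2.73 in bIP, 20.0 and 18.1 in bRG, and 21.1 in both aRG libraries. Without regions beyond 50 kb the DKK2 locus was not called, at -0.48. DKK4 was low throughout, with 6.85 and 6.23 locus CPM in N, 18.0 and 17.4 in bIP, 12.6 and 12.0 in bRG, and 16.0 and 13.6 in aRG, and fell by 1.17 in N against aRG (adjusted p = 0.001). DKK3 had 147 and 98.9 CPM in N, 214 and 224 in bIP, 210 and 261 in bRG, and 194 and 229 in aRG, a fall of 0.78 in N against aRG (adjusted p = 0.0076).

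DKK1 rose as a locus, with 129 and 138 CPM in N, 88.3 and 81.7 in bIP, 85.0 and 84.6 in bRG, and 91.0 and 82.8 in aRG, a change of 0.62 ± 0.08 for N against aRG (adjusted p = 0.00032). The direction depended on the window. With regions within 50 kb of the start the locus fell by 0.51 (adjusted p = 0.0031), and within 1 kb it was not called, at -0.32. Regions far from the gene carried the rise: one at chr10:48067636-48068272, 176941 bp away, had 12.4 and 17.2 region CPM in N, 1.85 and 2.19 in bIP, 0.471 and 0.782 in bRG, and 0.431 and 0.840 in aRG. Over the start, chr10:48233194-48235247, means were 10.1 in N, 13.8 in bIP, 14.6 in bRG and 15.1 in aRG, a fall of 0.59 in N against aRG (adjusted p = 0.038) that was lost without N 2 (-0.37) or aRG 1 (-0.31). WIF1, a further Wnt-binding inhibitor, was not called in any comparison.

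Of the 7 intracellular transducers, 2 rose and 5 fell in N against aRG, with a median of -0.84. The shares were 28.6% and 71.4%, beside 25.4% and 27.6% of all loci. The 4 TCF and LEF factors, which carry β-catenin to DNA, all fell. TCF7L1, which mostly represses Wnt targets, had 50.7 and 36.3 CPM in N, 117 and 121 in bIP, 186 and 184 in bRG, and 200 and 180 in aRG. It fell by 2.12 in N against aRG (adjusted p = 1.8e-05), 1.45 in N against bIP (adjusted p = 0.00057) and 0.67 in bIP against aRG (adjusted p = 0.0058). Over its start, chr2A:85306330-85309366, region CPM was 19.1 and 14.4 in N, 41.4 and 44.6 in bIP, 75.8 and 70.9 in bRG, and 89.5 and 75.8 in aRG. TCF7L2 had 29.0 and 34.6 locus CPM in N, 39.7 and 49.4 in bIP, 56.8 and 58.4 in bRG, and 58.8 and 57.6 in aRG, a fall of 0.88 (adjusted p = 0.00078). LEF1 had 199 and 195 CPM in N, 226 and 257 in bIP, 345 and 327 in bRG, and 370 and 333 in aRG, a fall of 0.84 (adjusted p = 0.00015). TCF7 fell by 0.60 (adjusted p = 0.002).

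AXIN2, a negative regulator that is itself a common target of β-catenin signalling, had 175 and 147 CPM in N, 244 and 241 in bIP, 352 and 324 in bRG, and 377 and 347 in aRG. It fell by 1.17 in N against aRG (adjusted p = 5e-05), and 9 of its 12 regions fell while none rose. A region 14714 bp from its start, chr17:58607213-58608605, had 9.03 and 3.97 region CPM in N, 16.4 and 18.8 in bIP, 42.6 and 39.7 in bRG, and 50.4 and 45.1 in aRG. AXIN1, the constitutive scaffold, went the other way, with 143 and 144 locus CPM in N, 131 and 119 in bIP, 108 and 99.1 in bRG, and 106 and 103 in aRG, a rise of 0.46 ± 0.08 in N against aRG (adjusted p = 0.0014). Its start region had 52.3 and 56.4 region CPM in N, 38.1 and 38.0 in bIP, 35.7 and 34.3 in bRG, and 38.5 and 38.0 in aRG, so N stood above all others. The AXIN1 regions were split, however: of 4 tested, 2 rose and 2 fell in N against aRG, between -3.84 and 1.26. The locus of CTNNB1, β-catenin itself, had 285 and 345 CPM in N, 205 and 183 in bIP, 194 and 185 in bRG, and 199 and 189 in aRG. The rise of 0.70 ± 0.11 in N against aRG (adjusted p = 0.00081) rested on regions over 50 kb away, 16 of the 23 tested: within 50 kb the change was -0.04 (adjusted p = 0.76). One far region, chr3:41573251-41574328, had 5.31 and 7.15 region CPM in N, 0.545 and 0.729 in bIP, 0.441 and 0.374 in bRG, and 0.235 and 0.210 in aRG, and a peak in N only.

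Single regions gave a wider range than the loci. Of 383 tested Wnt regions, 100 rose (26.1%) and 163 fell (42.6%) in N against aRG, where 37.2% of all regions rose and 31.7% fell, and the median was -0.40 over Wnt regions and 0.13 over all regions. For bIP against aRG, 77 rose and 112 fell, against 24.5% and 22.6% of all regions. For N against bIP, 64 rose and 122 fell, against 25.0% and 22.6%. In N against aRG, 28 of the 54 genes with at least 2 tested regions held both a region that rose and one that fell, 19 only regions that fell, 5 only regions that rose, and 2 none called. The same count was not made over all genes, so it is not read as a trait of the Wnt genes. By the authors' peak lists, 90 Wnt regions (23.0%) had a peak in all 4 populations, beside 28.1% of all regions nearest to a protein-coding gene. A peak in all but N was held by 48 (12.3%, beside 6.3%), in bRG and aRG only by 34 (8.7%, beside 8.2%), and in N and bIP only by 27 (6.9%, beside 5.3%). A peak in N only was held by 29 (7.4%, beside 9.1%), in bIP only by 22 (5.6%, beside 4.2%), and in none by 110 (28.1%, beside 30.6%), so most of these shares were near those of all such regions. These lists were called once per population, so such counts have no replicate spread.

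WNT7A, a ligand of forebrain progenitors and vessels, shows how a level locus can hold opposed regions, and was chosen after its values were seen. Its 29 regions, the most of any member, summed to 440 and 406 CPM in N, 510 and 467 in bIP, 447 and 452 in bRG, and 411 and 426 in aRG, a change of 0.02 ± 0.09 for N against aRG. Within it 10 regions rose and 7 fell, between -3.34 and 4.78. A region 82337 bp from the start, chr3:13987913-13989198, had 31.1 and 32.8 region CPM in N, 24.3 and 20.5 in bIP, 3.71 and 4.01 in bRG, and 2.43 and 2.69 in aRG. Another 67210 bp away, chr3:14002744-14004340, had 3.94 and 2.67 in N, 10.7 and 12.3 in bIP, 31.3 and 29.7 in bRG, and 32.7 and 31.5 in aRG. A further region, chr3:13965359-13966449, was highest in bIP, with 1.68 and 1.37 in N, 5.92 and 5.37 in bIP, 1.88 and 1.87 in bRG, and 2.23 and 1.09 in aRG.

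**Figure D3:**
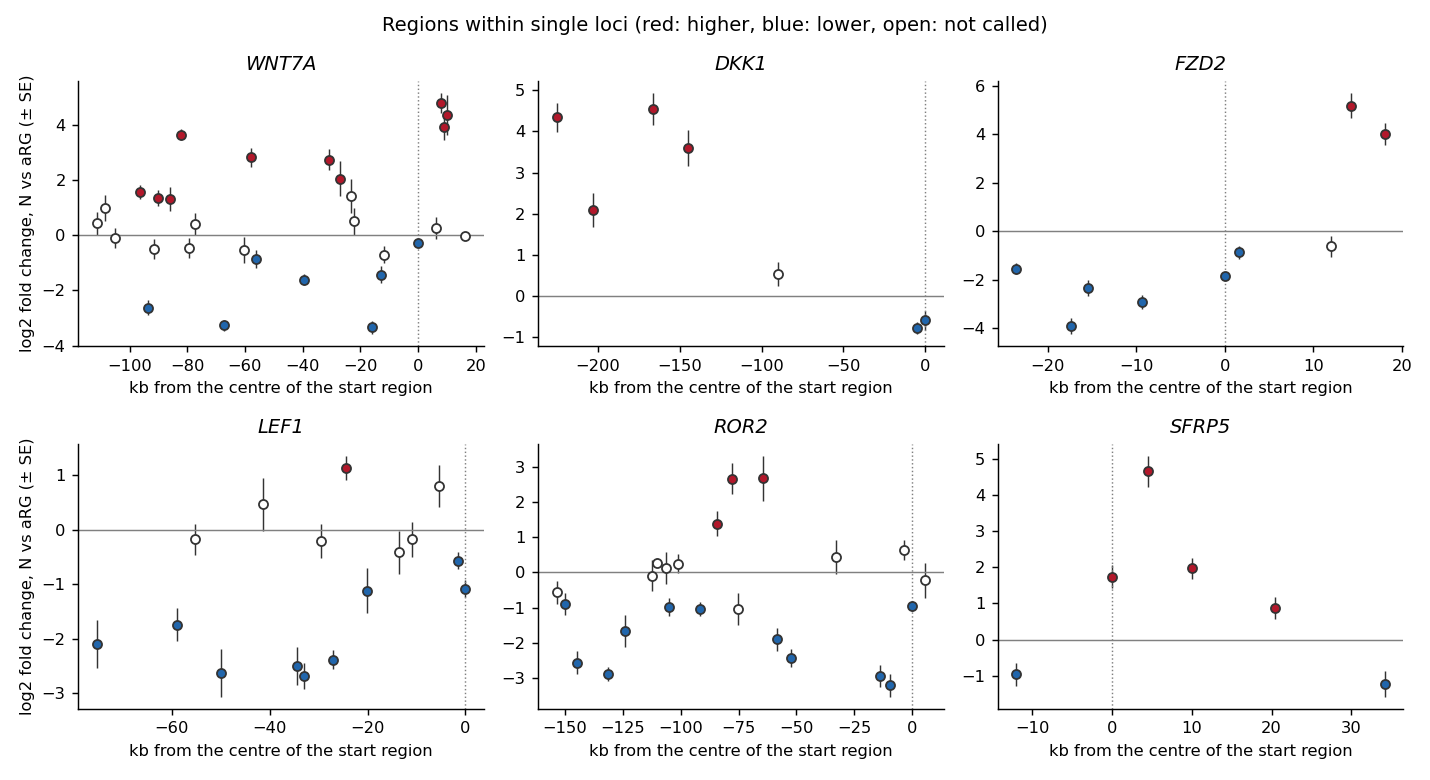
Log2 fold change with standard error of each tested region, for N against aRG, at 6 Wnt loci, placed by its distance in kb from the centre of the start region in the direction of rising coordinates (dotted line at 0). Red and blue points are called higher and lower, and open points are not called. At DKK1 the far regions rise while the start region falls, and at FZD2 the regions that rise lie together at the high-coordinate end, and at WNT7A regions that rise and fall are interspersed.

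Wnt regions over gene starts mostly fell in neurons, within a narrower range of sizes than the regions farther away. Of 43 Wnt regions over a start, 4 rose (9.3%) and 29 fell (67.4%) in N against aRG, beside 6.4% and 42.9% of the 10368 start regions of all protein-coding genes. The starts that rose were those of WNT2, WNT10B, AXIN1 and SFRP5. The WNT10B call was lost without aRG 2 (0.89), and the WNT2 call without N 1 (0.43), N 2 (0.60), bIP 2 (0.35), either bRG library (0.52 each), aRG 1 (0.37) or aRG 2 (0.68). Between 1 and 50 kb, 60 Wnt regions rose and 98 fell of 242, or 24.8% and 40.5%, beside 36.6% and 30.1% of all such regions. Beyond 50 kb, 34 rose and 32 fell of 91, beside 41.7% and 30.6%. For bIP against aRG the start regions were near the background, with 1 higher and 16 lower (37.2%), beside 3.59% and 38.3% of all start regions. Among the Wnt regions, peaks over starts were also more widely shared: 34 of 43 had one in all 4 populations, against 54 of 341 regions more than 1 kb away. These shares were not taken over the start regions of all genes, so they are not read as a trait of the Wnt genes.

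**Figure D4:**
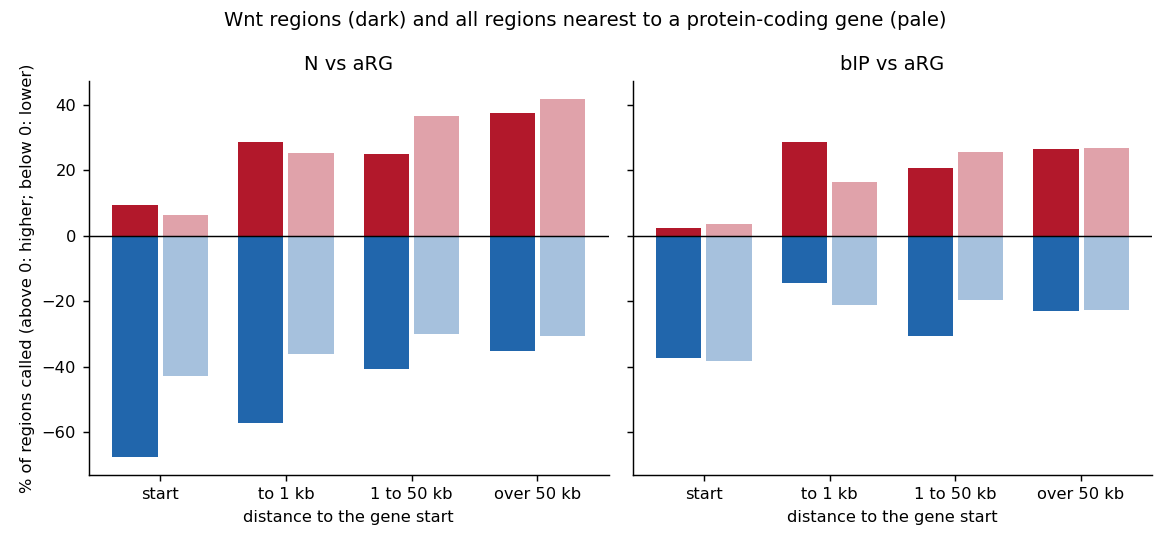
Share in percent of regions called higher (above 0) and lower (below 0) by distance to the gene start, for N against aRG (left) and bIP against aRG (right), in Wnt regions (dark) and in all regions nearest to a protein-coding gene (pale). The share of Wnt start regions that fell in N against aRG, 67.4%, lies above the 42.9% of all start regions.

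Levels can be given per kb of the regions assigned to each gene, but the kinds of region differ between genes. The WNT5A locus sums 1.87 kb and holds no region over a start. Its large neighbour at chr3:55740787-55743678, with a mean of 31.0 region CPM in aRG, is assigned to WNT5A-AS1 and left out. The FZD3, AXIN1, LRP6 and FZD8 loci each include a region over the start. In N the WNT5A locus had 49.1 locus CPM per kb, more than FZD3 (32.1), AXIN1 (31.8) and LRP6 (29.6). In aRG it had 3.56 per kb, where FZD3 (42.9), FZD8 (37.8) and LRP6 (36.9) stood high. RSPO4 was among the lowest in either, with 6.28 per kb in N and 1.45 in aRG.

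The wider pathway was followed in 58 further genes, of which 51 had a region: the secretion, destruction complex, feedback and planar polarity genes. In N against aRG 10 rose (19.6%) and 23 fell (45.1%), with a median of -0.21, beside the backgrounds given above for loci. For N against bIP 6 rose and 20 fell (11.8% and 39.2%, beside 12.5% and 17.1% of all loci). For bIP against aRG 3 rose and 12 fell (5.88% and 23.5%, beside 16.8% and 14.9%). The count for N against bIP, 26 in all, was 15 without N 2 and 16 without bIP 1. WLS, which carries Wnt proteins to the cell surface, averaged 60.4 CPM in N, 104 in bIP, 204 in bRG and 239 in aRG, a fall of 1.98 in N against aRG (adjusted p = 0.0001). DAAM2, a formin that links Wnt receptors to the cytoskeleton, fell most, by 2.64 (adjusted p = 1.6e-05), with means of 16.7 in N, 41.3 in bIP, 112 in bRG and 104 in aRG. VANGL1, a planar polarity protein, fell by 1.74 (adjusted p = 2e-05), and the corepressor TLE1 by 1.41 (adjusted p = 7.8e-05).

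In the other direction, SOSTDC1, a secreted inhibitor of BMP and Wnt signals, rose by 1.94 ± 0.20 in N against aRG (adjusted p = 9.3e-05), with means of 58.9 CPM in N, 12.4 in bIP, 13.8 in bRG and 15.3 in aRG. PRICKLE2, a planar polarity protein of neurons, rose by 0.88 ± 0.14 (adjusted p = 0.001). Both rises came from regions more than 1 kb from the start: within 1 kb the changes were 0.00 for SOSTDC1 and -0.02 for PRICKLE2. CSNK1G1, a casein kinase, rose by 0.68 ± 0.08 (adjusted p = 0.00014). In bIP against aRG the 3 loci that rose were PTK7, a polarity co-receptor, by 0.75 ± 0.10 (adjusted p = 0.001), DRAXIN, a secreted axon guidance and Wnt inhibitor, by 0.50 ± 0.12 (adjusted p = 0.013), and APC2, a neuronal member of the destruction complex, by 0.44 ± 0.09 (adjusted p = 0.0073). The DRAXIN call was lost without bIP 1 (0.31), aRG 1 (0.54) or aRG 2 (0.45), and the APC2 call without aRG 1 (0.34).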

How the data were processed

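Per the file headers, the authors' table held unscaled whole-number counts per region and library, and their consensus peak lists a −log10 q-value per peak. bcl2fastq 2.20.0, MACS2, panTro6 and hg38 are named in the submitters' processing notes. No aligner, and no source for the closest genes, is given there. Of 218080 regions, 6725 had no chimpanzee identifier and only 0 counts, and 7 were repeats. 211348 were kept, 8 of 391 Wnt regions failed filterByExpr, and 383 were tested. Distances fitted 1 position per gene, taken as its start, in 390 of 390 Wnt regions tested (tolerance 2 bp, human coordinates), and have no sign. A peak counted where its interval overlapped the region.

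edgeR 4.0.16 (quasi-likelihood, robust, TMM) in R 4.3.3 took the 8 libraries together, with a mean per population and no other covariate, over 198227 regions and 14094 loci, with 4 residual degrees of freedom. Standard errors are the absolute log2 fold change divided by the square root of F. The fits were tested on simulated counts for N against aRG, with 200 changed regions or loci. Of those changed 1.5-, 2- and 4-fold, 1 of 66, 2 of 67 and 49 of 66 regions were recovered. For loci the numbers were 2 of 67, 27 of 67 and 64 of 66. False calls were 1 among regions and 6 among loci. In the data far more features were called for N against aRG. The simulation also gave regions and loci the same spread between libraries. In the data edgeR's coefficient of variation between libraries was 0.216 for regions and 0.106 for loci. For both reasons these rates may not carry over. Alternatives were RLE scaling, no filter, DESeq2 1.42.0, a replicate block, windows of 50 and 1 kb, and each library left out. Members and lists were chosen with earlier results of these data known. Named with values were WNT5A, SFRP2 and, per comparison and role, up to 3 called loci in each direction, with their start region and the called region of smallest p. Promoter motifs were not searched, since no genome was used here.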

Additional observations from a re-analysis of the deposited data

How the results depend on the processing

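Of 1434 alternatives for 104 called effects of named loci, 1283 kept direction and call, 143 lost the call and 8 changed sign; for 187 effects of named regions, 2135 of 2244 kept both, 109 lost the call and 0 changed sign. The sign changes all came from narrower windows. Within 50 kb they were -0.04 at CTNNB1 (N against aRG) and, at DKK1, -0.51 (N against aRG) and -0.29 (N against bIP). Within 1 kb they were -0.32 (N against aRG) and -0.47 (N against bIP) at DKK1, 0.08 at SFRP1 (bIP against aRG), -0.02 at PRICKLE2 and 0.00 at SOSTDC1 (both N against aRG). Within 1 kb, 46 Wnt loci could be tested. For N against aRG 26 were called (56.5%, beside 47.8% of all loci in that window), for N against bIP 15 (32.6%, beside 18.6%) and for bIP against aRG 10 (21.7%, beside 17.3%); of other pathway loci 21, 11 and 9 of 45 were called. With 1 library left out, Wnt locus counts ranged from 34 to 43 for N against aRG, 15 to 24 for N against bIP, and 15 to 28 for bIP against aRG, and other pathway counts for N against bIP from 15 to 29. RLE scaling moved the median of all regions in N against aRG to 0.03, against 0.13.

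The labels do not say whether the replicate numbers pair the libraries, and the main fit did not pair them. With a replicate block, 47, 35 and 35 Wnt loci and 287, 219 and 214 Wnt regions were called for N against aRG, N against bIP and bIP against aRG, and 0 for bRG against aRG. The Wnt region shares, 74.9%, 57.2% and 55.9%, were near those of all regions under the block, 73.0%, 55.2% and 53.6%, while the Wnt locus shares, 85.5%, 63.6% and 63.6%, stood beside 63.1%, 43.1% and 43.0% of all loci. Deviations of same-numbered libraries correlated at 0.12 to 0.31 over regions and 0.22 to 0.52 over loci. The block ended no call of a named locus or region.

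Groups of 2 libraries leave 4 residual degrees of freedom, so a region or locus that was not called can still differ. Being the closest gene is a matter of position and does not show which gene a region acts on, and the build behind the distances is not stated.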
